A study of Mus musculus with 48 samples.

Results

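Hyaluronan is handled in the mouse aorta by a small set of genes, and 10 of them were followed here through the raw counts of aortas from mice given β-aminopropionitrile (BAPN), a model of aortic dissection. They are the synthases Has1, Has2 and Has3, the breakdown genes Cemip, Cemip2, Hyal1 and Hyal2, and the binders Cd44, Stab1 and Tnfaip6. They were picked by name for their role, with earlier results of these data known. They make up 10 of the 18782 genes in the table, and all 10 passed the filter on low counts that left 14431 genes for testing.

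Strand-specific RNA-seq was made from the thoracic aorta of 48 C57BL/6J mice of WT genotype, with 1 library per mouse. BAPN, an inhibitor of the lysyl oxidase enzymes that cross-link collagen and elastin, was added at 0.4% to the drinking water for 28 days, starting at the age of 3 weeks, and control mice drank normal water. Only mice alive at the end of treatment were sequenced, so aortas that ruptured earlier are not among the libraries, and RNA came from the segments that carried the lesions. Males and females were caged apart, and the paper gives multiple cages within each group of sex and treatment. The cage of each mouse is not labelled, so neither sex nor treatment can be told apart from cage.

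There were 6 groups. MaCon (10 males) and FeCon (10 females) drank normal water. MaNonAD (4 males) and FeNonAD (8 females) received BAPN and had no detectable aortic lesion. MaAAD (7 males) and FeAAD (9 females) received BAPN and had a dissection or an aneurysm, which the label AAD pools.

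Hyaluronan is a long unbranched sugar polymer of the extracellular matrix, spun out at the plasma membrane by the Has enzymes from UDP-sugars in the cytosol. It holds water, is cut to fragments by hyaluronidases and by the Cemip proteins, and is taken up or sensed through receptors such as Cd44. In arteries it lies around smooth muscle cells and in the adventitia, where it is known to accumulate after injury, and TSG-6, the product of Tnfaip6, links it to the heavy chains of inter-alpha-inhibitor.

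Library totals ran from 13548015 to 17281268 counts, with a median of 15681338. The labelled tissue carried its markers: the summed level of 8 smooth muscle genes was 27800 to 60200 CPM (counts scaled to one common library total) in MaCon and 30500 to 52200 CPM in FeCon. The libraries FeAAD5 and FeAAD9 stood apart from their group, with mean correlations to the other FeAAD libraries of 0.953 and 0.971, and the FeAAD results whose call they decide are given with and without them. In MaAAD the lowest such means were 0.972 in MaAAD1 and 0.976 in MaAAD7, against 0.984 to 0.988 in the other 5, and of the calls in MaAAD against MaCon none was lost without MaAAD1, while those of Has2 and Stab1 were lost without MaAAD7. The macrophage markers rose in lesions, with 8 of 9 genes called higher in each sex. Their summed level was 154 to 390 CPM in MaCon, 576 to 1960 CPM in MaAAD, 179 to 433 CPM in FeCon and 436 to 2170 CPM in FeAAD. The neutrophil markers, of which 4 of 5 tested were called higher in MaAAD and 5 of 5 in FeAAD, summed to 881 CPM in FeAAD5, 237 CPM in MaAAD7 and 200 CPM in FeAAD9, against at most 54.8 CPM in any other library. Smooth muscle markers were called lower for 5 of 8 genes in MaAAD and 4 of 8 in FeAAD, and their summed level was 11800 to 29400 CPM and 13900 to 31900 CPM. Of the other lists that shifted, 2 of 7 fibroblast markers were called higher in each sex, with sums of 9660 to 12500 CPM in MaCon, 13800 to 24800 in MaAAD, 9320 to 13500 in FeCon and 13300 to 25100 in FeAAD. For cartilage 2 of 3 tested markers were called higher in each sex, with sums of 4.08 to 7.55 CPM in MaCon, 8.93 to 69.4 in MaAAD, 4.62 to 10.4 in FeCon and 11.2 to 220 in FeAAD. For lymphatic endothelium 1 of 4 was called higher in males and 2 of 4 in females, with sums of 15.7 to 51.4 CPM in MaCon, 58.7 to 169 in MaAAD, 24.8 to 73.7 in FeCon and 36.8 to 258 in FeAAD. B cell markers were called higher for 2 of 4 genes in males and 4 of 4 in females, with sums of 0.802 to 5.30 CPM in MaCon, 2.23 to 9.28 in MaAAD, 0.293 to 2.22 in FeCon and 1.98 to 26.2 in FeAAD. Heart muscle markers were called lower for 4 of 6 genes and mesothelial markers for 1 of 7 in females, where the lists had a median log2 fold change of -1.56 and -0.77, against 0.41 and 0.26 in males. Their median sums were 71.1 and 150 CPM in FeCon against 34.0 and 77.6 CPM in FeAAD. The endothelial, T cell, fat and Schwann cell lists had median log2 fold changes between -0.39 and 0.70 in AAD against Con. In whole tissue, fewer cells of a type and less RNA per cell cannot be told apart, and the part of these shifts in the values below was not tested.

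The promoters are shown for the 4 genes with an entry that were called higher in lesions of both sexes, so that the sequence ahead of each start can be seen beside its levels. They come from RefSeq windows of the GRCm38.p6 build, which held 7 of the 10 genes, run 5′ to 3′ on the gene's strand, and stop before the start of the gene in both RefSeq and GENCODE. Capitals mark a match to TATAAA, the TATA box, or to TGANTCA, the AP-1 site, searched on both strands.
Has1 (chr17:17855206-17855438, minus strand): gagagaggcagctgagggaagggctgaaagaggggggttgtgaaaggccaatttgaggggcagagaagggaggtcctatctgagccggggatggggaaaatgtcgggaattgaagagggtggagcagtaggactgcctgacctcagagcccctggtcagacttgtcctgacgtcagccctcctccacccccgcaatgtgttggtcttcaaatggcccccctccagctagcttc
Cemip (chr7:84086506-84086755, minus strand): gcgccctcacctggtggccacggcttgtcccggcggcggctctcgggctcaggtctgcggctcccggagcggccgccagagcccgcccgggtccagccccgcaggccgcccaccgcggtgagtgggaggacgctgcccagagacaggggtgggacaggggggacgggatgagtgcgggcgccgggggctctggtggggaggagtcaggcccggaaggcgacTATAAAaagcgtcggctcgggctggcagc
Cd44 (chr2:102901666-102901915, minus strand): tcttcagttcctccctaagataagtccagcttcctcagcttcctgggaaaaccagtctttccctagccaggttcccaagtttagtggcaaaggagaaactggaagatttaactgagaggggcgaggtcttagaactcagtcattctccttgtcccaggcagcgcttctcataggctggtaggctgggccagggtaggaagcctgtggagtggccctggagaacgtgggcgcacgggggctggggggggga
Tnfaip6 (chr2:52037863-52038008, plus strand): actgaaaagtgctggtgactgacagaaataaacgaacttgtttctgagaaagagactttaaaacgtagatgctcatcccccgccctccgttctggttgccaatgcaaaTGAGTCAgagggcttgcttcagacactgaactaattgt
Over the 300 bases of each window, Cemip held a TATAAA that begins 29 bases before its RefSeq start, and Tnfaip6 held a TGANTCA match that begins 142 bases before its RefSeq start, which lies beyond the end of the printed stretch because the GENCODE start comes first. Has1, Cd44, Hyal1, Hyal2 and Stab1 had neither run of letters in theirs. TATAAA occurs in 13.6% and TGANTCA in 7.81% of the 32851 windows of this length. The Cemip window was the richest in G and C of the 7, at 73.7% against a median of 52.7% over all windows, and that of Tnfaip6 the poorest at 47%.

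Compared per kilobase of their longest coding transcript, the genes of uptake and breakdown led in control aortas and Cemip was last. Hyal1 (a lysosomal hyaluronidase) stood at 38.9 ± 10.4 CPM per kb (SD, n = 10) in MaCon, ahead of the scavenger receptor gene Stab1 at 18.3 ± 3.96 and Hyal2 (the hyaluronidase anchored at the cell surface) at 15.0 ± 2.05. Then came Cd44 at 7.53 ± 1.41, Cemip2 at 4.68 ± 0.824, Tnfaip6 at 2.21 ± 0.888, Has3 at 1.5 ± 0.409, Has1 at 0.540 ± 0.184, Has2 at 0.207 ± 0.119 and Cemip at 0.0249 ± 0.0236 CPM per kb. FeCon had the same order except that Has3, at 2.87 ± 2.01 CPM per kb, came before Tnfaip6 at 2.17 ± 0.949. The neighbours Stab1 and Hyal2 differed by less than the larger of their SDs in both control groups, as did Tnfaip6 and Has3. Later levels are CPM, scaled by library size and not by length, and are compared within a gene. The synthase shares and sums are the exception and use CPM per kb. Where a gene of a list is named as the most abundant or highest, this is by mean CPM without regard to length.

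The main comparison asked how the genes differed between lesioned and control aortas of the same sex. In males 6 of the 10 were called higher in MaAAD than in MaCon (Has1, Has2, Cemip, Cd44, Tnfaip6 and Stab1) and 1 lower (Has3). A gene was called where the edgeR quasi-likelihood test gave a Benjamini-Hochberg adjusted p under 0.05 and the log2 fold change was at least 1 in size. Among all genes tested, 9.18% were called higher and 2.17% lower. In females 5 were called higher in FeAAD than in FeCon (Has1, Has2, Cemip, Cd44 and Tnfaip6) and again Has3 lower, where 9.94% of all genes were called higher and 2.78% lower. The median log2 fold change of the 10 was 1.23 in males and 1.10 in females, beside -0.03 and 0.00 over all genes tested. Leaving out FeAAD5 and FeAAD9 together left 4 called in females, with Has1 and Has2 no longer among them.

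**Figure D1:**
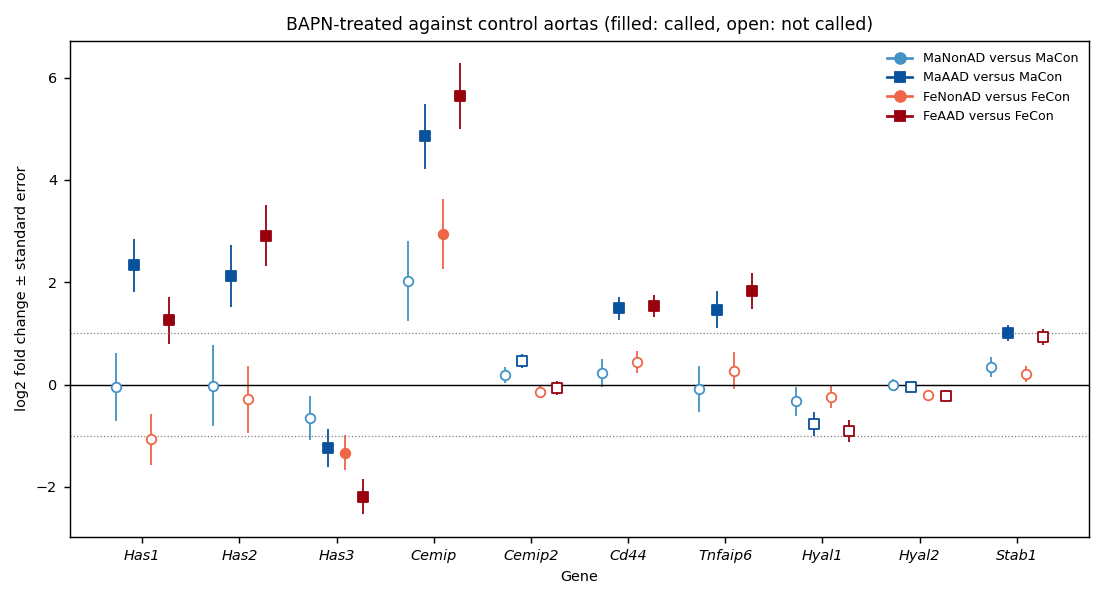
Log2 fold change (y axis) of the 10 genes (x axis) in each BAPN group against the controls of the same sex, with bars of 1 standard error, filled symbols for called genes and dotted lines at the fold minimum. Cemip has the largest positive values, 4.85 in MaAAD and 5.64 in FeAAD, and Has3 lies below 0 in all 4 comparisons.

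Has1 encodes the least active of the 3 synthases in most cells. Its level ran from 0.601 to 1.77 CPM in MaCon (median 1.16) and from 1.78 to 11.5 CPM in MaAAD (median 5.06). All 7 MaAAD libraries lay above all 10 MaCon libraries, a separation that 8.91% of all genes showed in 1 direction or the other. On the log2 scale the difference was 2.33 (SE 0.52, edgeR adjusted p = 0.000344), a 5.02-fold higher level. In females the groups overlapped: FeCon ran from 0.596 to 11.6 CPM (median 2.23) and FeAAD from 0.824 to 21.7 CPM (median 7.24). Only 2 of 9 FeAAD libraries exceeded the highest control, FeCon10, in which the heart muscle markers summed to 587 CPM against a FeCon median of 71.1 CPM. The same markers summed to 395 CPM in MaAAD7, against a MaAAD median of 43.8 CPM, and this library had the highest Has1 and Has2 of MaAAD. The highest Has1 levels among lesions, 21.7 CPM in FeAAD5, 18.2 in FeAAD9 and 11.5 in MaAAD7, were in the 3 libraries with the high neutrophil markers. The part of the heart muscle and neutrophil markers in these values was not tested. The male value of Has1 was 2.06 without MaAAD7 (adjusted p = 0.00225). The female log2 fold change of 1.26 (SE 0.46, adjusted p = 0.0232) rested on single libraries. It was 0.98 without FeAAD5 (adjusted p = 0.0871), 1.06 without FeAAD9 (adjusted p = 0.0633), 0.64 without both (adjusted p = 0.291) and 1.65 without FeCon10 (adjusted p = 0.00342). The call was also lost when only the compared groups were fitted (1.27, adjusted p = 0.0512).

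Has2, the main synthase of the embryonic heart and of injured vessels, was low in controls, at 0.202 to 1.54 CPM in MaCon (median 0.879) and 0.284 to 2.03 CPM in FeCon (median 0.495). It ran from 0.964 to 14.0 CPM in MaAAD (median 1.97) and from 0.294 to 30.2 CPM in FeAAD (median 2.22). Above the highest control of their sex lay 6 of 7 MaAAD and 5 of 9 FeAAD libraries, and the others were within the control range. The high end was held by FeAAD5 at 30.2, FeAAD9 at 14.2 and MaAAD7 at 14.0 CPM, the same 3 libraries with the high neutrophil markers. The log2 fold change was 2.12 in males (SE 0.61, adjusted p = 0.00504) and 2.91 in females (SE 0.59, adjusted p = 8.24e-05). It was 1.28 without MaAAD7 (adjusted p = 0.102) and, in females, 1.04 without FeAAD5 and FeAAD9 (adjusted p = 0.0793). An antisense gene, Has2os, lies over Has2, and the strand setting of the counting is not given in the sources used here. Genes on the opposite strand also overlap Has3 (Chtf8), Stab1 (Nt5dc2), Cd44, Cemip2, Hyal1 and Hyal2, so the same limit holds for these.

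Has3, the synthase known for shorter chains, was the one that fell. It ran from 6.45 to 14.8 CPM in MaCon (median 8.48) and from 1.75 to 8.00 CPM in MaAAD (median 3.31), with 6 of 7 MaAAD libraries below the lowest control. The spread was wider in females, from 5.19 to 44.5 CPM in FeCon (median 12.9) and from 0.65 to 8.82 CPM in FeAAD (median 3.43), where 8 of 9 lay below the lowest control. The log2 fold change was -1.24 in males (SE 0.37, adjusted p = 0.00654) and -2.19 in females (SE 0.34, adjusted p = 1.28e-06), 2.36-fold and 4.57-fold lower. Both calls held with any 1 library left out, over -1.54 to -1.10 and -2.47 to -1.89, and the female value was -1.93 without FeAAD5 and FeAAD9. The lowest Has3 levels, 0.65 CPM in FeAAD5, 1.75 in MaAAD7 and 1.87 in FeAAD9, were in the libraries with the high neutrophil markers. The part of those markers was not tested.

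**Figure D2:**
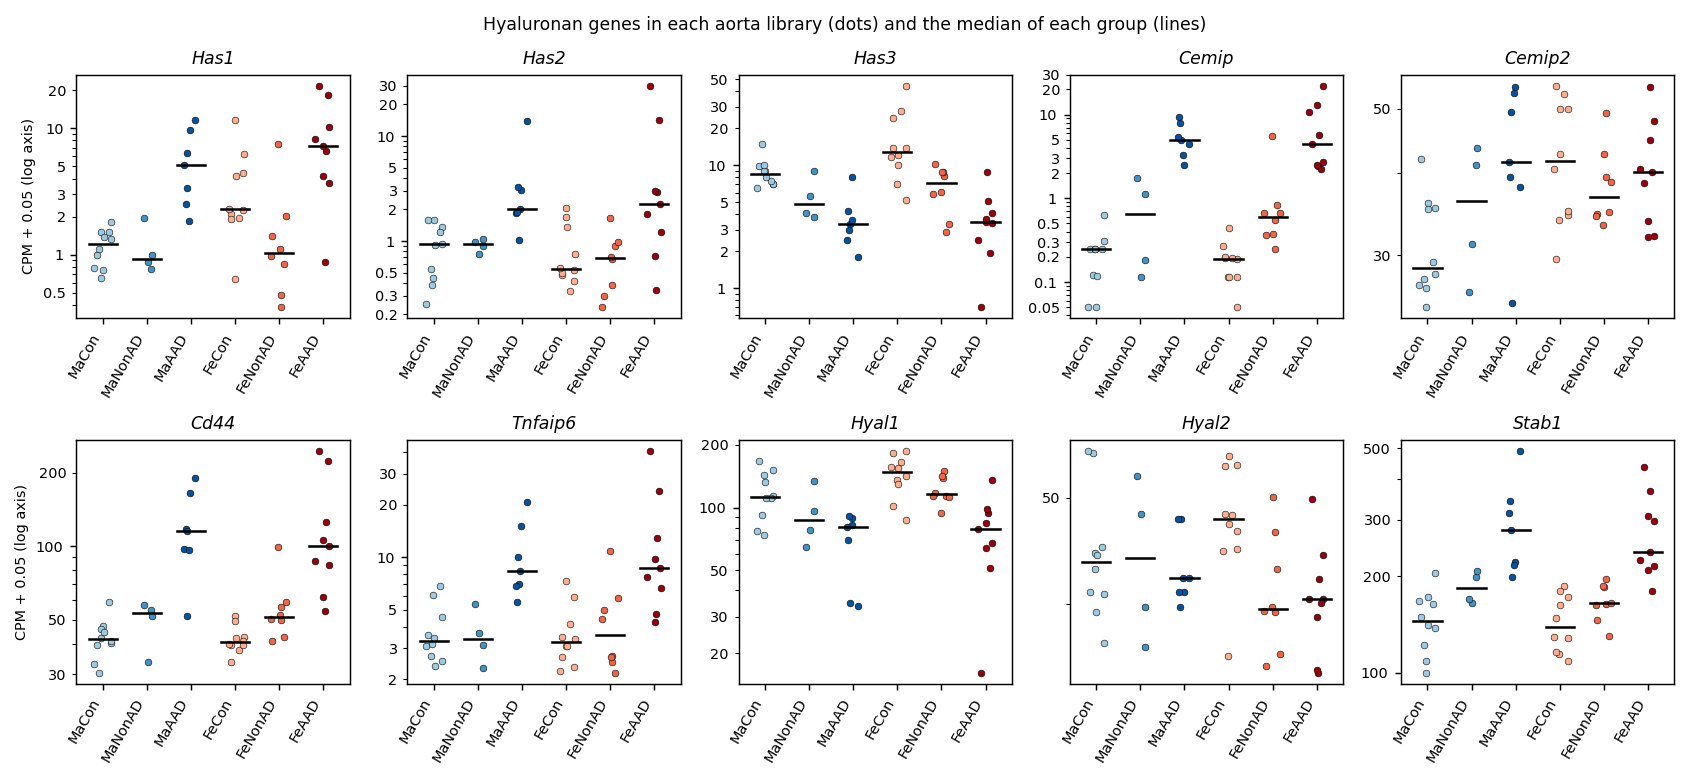
Level of the 10 genes in every library, as CPM plus 0.05 on log axes (y) by group (x), with a line at the group median. Has1, Has2, Cemip, Cd44 and Tnfaip6 sit higher and Has3 lower in the AAD groups, Hyal2 stays between 34.6 and 55.1 CPM in every group, and 1 FeNonAD library lies above its group for Has1, Cemip, Cd44 and Tnfaip6.

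With opposite shifts in Has1 and Has3, the make-up of the synthase transcripts differed between control and lesion libraries. As a share of the summed CPM per kb of the 3 synthases, Has3 averaged 66.5% ± 10.0 (SD, n = 10) in MaCon and 19.1% ± 10.5 (n = 7) in MaAAD, and Has1 averaged 24.4% ± 7.98 and 62.2% ± 11.1. The female shares were 59.2% ± 22.1 (n = 10) and 19.2% ± 22.7 (n = 9) for Has3, and 35.5% ± 21.8 and 65.4% ± 18.9 for Has1. Has3 was the leading synthase in 10 of 10 MaCon, 3 of 4 MaNonAD, 8 of 10 FeCon and 6 of 8 FeNonAD libraries, and Has1 in 7 of 7 MaAAD and 8 of 9 FeAAD. The exception among lesions was FeAAD4, where Has3 made up 76.3%. Has2 led in no library and reached 40.5% at most, in a FeAAD library. The summed level itself was 2.24 ± 0.406 CPM per kb in MaCon, 4.27 ± 2.68 in MaAAD, 4.84 ± 2.34 in FeCon and 6.38 ± 5.19 in FeAAD, so the female control and lesion sums overlapped widely. These shares are a description without a test, and they use the longest of the 3 coding transcripts of Has3, whose lengths run from 1154 to 5912 bases.

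**Figure D3:**
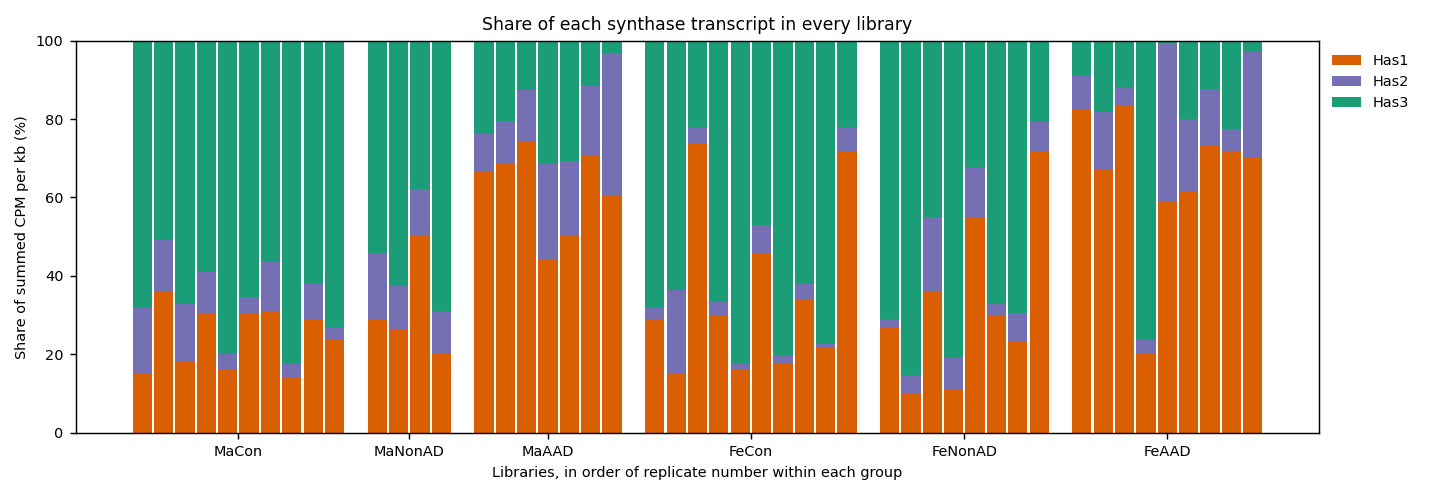
Share (%) of Has1, Has2 and Has3 in their summed CPM per kb, 1 stacked bar per library, ordered by replicate number within each group. Has3 averages 66.5% in MaCon and 59.2% in FeCon and about 19% in both AAD groups, where FeAAD4 alone keeps a large Has3 share.

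Cemip, whose secreted protein binds hyaluronan and drives its breakdown outside the lysosome, had the largest shift of the 10. It was close to absent in controls, with 0 to 9 counts per library in MaCon and 0 to 6 in FeCon (medians 0.198 and 0.140 CPM). Lesion libraries held 40 to 157 counts in MaAAD and 36 to 368 in FeAAD, at 2.48 to 9.40 CPM (median 4.94) and 2.17 to 22.1 CPM (median 4.43). No lesion library overlapped with a control library in either sex, against 8.91% of all genes so separated in males and 4.89% in females. The log2 fold change was 4.85 in males (SE 0.63, adjusted p = 8.28e-08) and 5.64 in females (SE 0.64, adjusted p = 2.58e-09). With so few control counts the size of the fold is loosely fixed, and with single libraries left out it ran from 4.66 to 5.25 and from 5.22 to 5.97. Unlike Has2, Cemip was not high in the neutrophil-rich libraries: FeAAD9 had the lowest FeAAD value at 2.17 CPM, FeAAD5 was at 4.43 CPM and MaAAD7 at 4.37 CPM, and FeAAD6 had the highest at 22.1 CPM. The next were FeAAD7 at 12.9 and FeAAD1 at 10.8 CPM. In these 3 libraries the cartilage markers summed to 220, 71.8 and 133 CPM, the highest of FeAAD, and the fibroblast markers to 24600, 25100 and 18600 CPM, also the highest. In males the highest Cemip was in MaAAD5 at 9.40 and MaAAD6 at 7.87 CPM, with cartilage sums of 22.2 and 19.6 CPM. MaAAD4 had the highest cartilage sum at 69.4 CPM and a Cemip level of 3.26 CPM. The fibroblast sums of MaAAD5 and MaAAD6 were 20300 and 21100 CPM. MaAAD3, next in Cemip at 5.29 CPM, had 24800 CPM, and these were the 3 highest fibroblast sums of MaAAD. The part of these markers in the Cemip values was not tested.

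The related Cemip2, which encodes a membrane protein of hyaluronan breakdown, stayed within a narrow band. It ran from 25.0 to 41.9 CPM in MaCon (median 28.7) and from 25.4 to 53.9 CPM in MaAAD (median 41.4), where the log2 difference of 0.46 (SE 0.14, adjusted p = 0.00686) was under the fold minimum. FeCon, at 29.6 to 54.1 CPM, and FeAAD, at 31.9 to 53.8 CPM, overlapped throughout (log2 fold change -0.07, adjusted p = 0.706).

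Of the classical hyaluronidases, Hyal1 was lower in lesions and Hyal2 nearly flat. Hyal1 ran from 73.6 to 167 CPM in MaCon (median 112) and from 33.8 to 90.6 CPM in MaAAD (median 81.0), and from 87.0 to 187 CPM in FeCon (median 148) and from 16.1 to 135 CPM in FeAAD (median 79.0). The log2 fold changes of -0.77 (SE 0.24, adjusted p = 0.0097) and -0.91 (SE 0.22, adjusted p = 0.000731) passed the adjusted p and missed the fold minimum. Hyal1 shares its strand with the overlapping genes Naa80 and Hyal3, and its deposited counts were not whole in 100% of libraries, as where reads are shared out between genes, so its level is uncertain. Hyal2 had medians of 43.7 and 42.2 CPM in MaCon and MaAAD (log2 fold change -0.05, adjusted p = 0.723) and of 47.8 and 40.4 CPM in FeCon and FeAAD (log2 fold change -0.23, adjusted p = 0.0188).

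Cd44, the main surface receptor for hyaluronan on leukocytes and mesenchymal cells, ran from 30.4 to 59.1 CPM in MaCon (median 41.5) and from 51.6 to 189 CPM in MaAAD (median 115). FeCon ran from 33.5 to 51.8 CPM (median 40.5) and FeAAD from 54.4 to 245 CPM (median 100), so that all 9 FeAAD libraries lay above all 10 controls, as 4.89% of all genes were separated in 1 direction or the other. Only MaAAD1 among the male lesions lay within the control range. The log2 fold change was 1.49 (SE 0.22, adjusted p = 7.5e-07) in males and 1.54 (SE 0.21, adjusted p = 1.09e-07) in females, and 1.10 without FeAAD5 and FeAAD9 (adjusted p = 2.87e-06). The gene has 8 coding transcripts, which the gene-level counts do not separate.

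Stab1 encodes stabilin-1, a scavenger receptor of macrophages and sinusoidal endothelium. It ran from 100 to 205 CPM in MaCon (median 145) and from 199 to 491 CPM in MaAAD (median 279), and from 109 to 186 CPM in FeCon (median 138) and from 179 to 438 CPM in FeAAD (median 238). All but 1 lesion library of each sex lay above the highest control. The male log2 fold change of 1.01 (SE 0.16, adjusted p = 2.77e-06) just reached the fold minimum, and the female value of 0.93 (SE 0.15, adjusted p = 2.85e-06) just missed it. With MaCon2, MaCon6, MaCon8, MaAAD5 or MaAAD7 left out the male value lay between 0.84 and 1.00 and was not called, the lowest being that without MaAAD7. The macrophage markers differed between the same groups, as given above, and their part in the Stab1 and Cd44 values was not tested. The highest Cd44 levels, 245 CPM in FeAAD5, 222 in FeAAD9 and 189 in MaAAD7, were in the 3 libraries with the high neutrophil markers, of which FeAAD9 had a macrophage sum of 439 CPM, near the low end of FeAAD. The part of the neutrophil markers was not tested either.

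Tnfaip6, an inflammation-induced gene, ran from 2.33 to 6.78 CPM in MaCon (median 3.27) and from 5.45 to 20.6 CPM in MaAAD (median 8.23). FeCon ran from 2.17 to 7.21 CPM (median 3.21) and FeAAD from 4.18 to 40.6 CPM (median 8.57). Of the lesion libraries, 5 of 7 in males and 6 of 9 in females exceeded the highest control. The groups differed on the log2 scale by 1.46 (SE 0.36, adjusted p = 0.00129) in males and 1.83 (SE 0.35, adjusted p = 3.05e-05) in females, and 1.06 without FeAAD5 and FeAAD9 (adjusted p = 0.00435). The highest levels, 40.6 CPM in FeAAD5, 24.0 in FeAAD9 and 20.6 in MaAAD7, were again in the libraries with the high neutrophil markers, whose part was not tested, and the male value was 1.20 without MaAAD7 (adjusted p = 0.0105).

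A further comparison asked what BAPN-treated aortas without a detectable lesion showed. In females, Cemip was called higher and Has3 lower in FeNonAD than in FeCon, where 1.67% of all genes were called higher and 1.08% lower. FeNonAD and FeAAD are set against the same FeCon libraries, so the values of both comparisons share them. Has3 ran from 2.80 to 10.2 CPM in FeNonAD (median 7.12), all below the FeCon median of 12.9. Only 2 of 8 lay below the lowest FeCon value of 5.19 CPM, and the fold on the log2 scale was -1.33 (SE 0.34, adjusted p = 0.00703). Cemip ran from 0.2 to 5.54 CPM (median 0.554), and the fold on the log2 scale was 2.94 (SE 0.68, adjusted p = 0.00265). The highest value came from FeNonAD8, next to which the others reached 0.792 CPM at most, and without that library the log2 fold change was 1.75 (adjusted p = 0.0622). FeNonAD8 also had the highest Has1 (7.39 CPM), Cd44 (99.0 CPM) and Tnfaip6 (10.8 CPM) of its group, and its macrophage markers summed to 684 CPM, its fibroblast markers to 20500 CPM, its cartilage markers to 21.4 CPM (next 9.61) and its lymphatic endothelial markers to 97.8 CPM (next 53.4), each the highest of FeNonAD. Their part in its values was not tested. Has1 itself ran from 0.333 to 1.98 CPM in the other FeNonAD libraries, which overlapped with FeCon at 0.596 to 11.6 CPM. With FeNonAD8 included, its log2 fold change was -1.07 (adjusted p = 0.149). Without FeNonAD8 it was -1.92 (adjusted p = 0.00906), so that the genes called in that fit were Has1 and Has3, both lower, and Cemip was not among them.

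In males none of the 10 was called between MaNonAD and MaCon by edgeR or by DESeq2, 1 had an unadjusted p under 0.05 (Cemip), and 0.478% of all genes were called. Cemip was 1.08, 0.0636, 1.71 and 0.134 CPM in MaNonAD1 to MaNonAD4, so that 2 libraries lay above every MaCon library and 2 within the MaCon range. The log2 fold change of Cemip was 2.02 (SE 0.78, adjusted p = 0.252). Has3 was 3.77, 5.54, 4.07 and 9.01 CPM, with 3 of the 4 below the lowest MaCon value of 6.45 CPM and a log2 fold change of -0.66 (adjusted p = 0.588). With 4 libraries MaNonAD is the smallest of the 6 groups, and a p that misses the threshold does not show that the levels were alike.

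The step from treated aortas without lesion to lesions was called for 5 genes in females, where 6.79% of all genes were called higher. The log2 fold changes between FeAAD and FeNonAD were 2.32 for Has1 (adjusted p = 0.00119), 3.19 for Has2 (adjusted p = 0.000431), 2.70 for Cemip (adjusted p = 0.000447), 1.10 for Cd44 (adjusted p = 0.000402) and 1.56 for Tnfaip6 (adjusted p = 0.00204). Without FeAAD5 and FeAAD9, Has1 at 1.70 (adjusted p = 0.0287) and Cemip at 2.91 (adjusted p = 0.00244) were called, while Has2 at 1.32 (adjusted p = 0.11), Cd44 at 0.65 (adjusted p = 0.0185) and Tnfaip6 at 0.79 (adjusted p = 0.124) were not. Cd44 was under the fold minimum without FeAAD5 alone (0.90) and without FeAAD9 alone (0.94). Without FeNonAD8 the values were 3.18 for Has1 (adjusted p = 2.73e-05), 3.90 for Cemip (adjusted p = 1.15e-05), 3.50 for Has2, 1.27 for Cd44 and 1.89 for Tnfaip6, all called. Has3 had a lower level in FeAAD than in FeNonAD, by a log2 fold change of -0.86 that was not called (adjusted p = 0.0785).

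In males, Cd44 was called higher in MaAAD than in MaNonAD (log2 fold change 1.26, SE 0.30, adjusted p = 0.0497), beside 0.353% of all genes, and the call was lost in 7 of 11 fits with 1 library left out. All 7 MaAAD libraries lay above all 4 MaNonAD libraries for Cemip and for Tnfaip6, as 4.04% of all genes were separated in 1 direction or the other. Their log2 fold changes were 2.83 (adjusted p = 0.0507) and 1.54 (adjusted p = 0.0744), and that of Has1 was 2.38 (adjusted p = 0.066).

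Between the sexes, Has1 was called lower in MaCon than in FeCon (log2 fold change -1.72, SE 0.49, adjusted p = 0.0147), where 0.866% of all genes were called lower. The groups overlapped, and without FeCon10 the value was -1.33 (adjusted p = 0.0639). Has3 at -0.94 (adjusted p = 0.0379) and Cemip2 at -0.44 (adjusted p = 0.0149) passed the adjusted p without the fold minimum. Among lesions, MaAAD and FeAAD differed in none of the 10 by edgeR or DESeq2, with 0 unadjusted p under 0.05 and 0.0693% of all genes called. The same held between MaNonAD and FeNonAD, where 0.0485% were called. The difference between the male and female responses was tested directly as an interaction. For the response of AAD against Con none was called by either tool, 1 had an unadjusted p under 0.05 and 0.52% of all genes were called. That gene was Cemip2, with a male minus female difference of 0.52 in log2 fold change (SE 0.19, unadjusted p = 0.0073, adjusted p = 0.14), and for Has3 the difference was 0.95 (SE 0.48, adjusted p = 0.339). None was called by either tool for the response of NonAD, where 0.298% of all genes were called, or for the step from NonAD to AAD, where 0% were, with 0 unadjusted p under 0.05 in each.

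Lesions of the same label differed widely from each other, and some of the 10 genes varied together. Across the 16 AAD libraries, with the mean of each sex removed from log2(CPM + 1), 10 of 45 pairs had a Pearson r with an adjusted permutation p under 0.05 (100000 permutations within sex, two-sided). The closest was Has2 with Tnfaip6, at r = 0.96 and Spearman rho = 0.93 (permutation p of r = 1e-05, the smallest these permutations can give, adjusted p = 0.00015). Has2 with Cd44 had r = 0.92 and rho = 0.93, and Cd44 with Tnfaip6 r = 0.91 and rho = 0.84, each with the same permutation p of r. Within sex, Has2 with Tnfaip6 gave r = 0.86 in MaAAD and 0.99 in FeAAD, and Has2 with Cd44 0.80 and 0.98. Has1 varied with the same 3 genes, at r = 0.81 with Tnfaip6, 0.80 with Has2 and 0.79 with Cd44 (adjusted permutation p = 0.00382 each).

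The libraries MaAAD7, FeAAD5 and FeAAD9 carried part of this. Without FeAAD5 and FeAAD9, the 2 farthest from the median of Has2, r was 0.90 for Has2 with Tnfaip6 and 0.87 for Has2 with Cd44. Over the 13 libraries without all 3, Has2 with Cd44 (r = 0.89, adjusted permutation p = 0.0027) and Has2 with Tnfaip6 (r = 0.85, adjusted permutation p = 0.0112) still passed. Cd44 with Tnfaip6 (r = 0.76, adjusted permutation p = 0.0555) and the pairs of Has1 did not, and the only other pair to pass was Cemip2 with Hyal1, at r = 0.86 (adjusted permutation p = 0.027). The negative pairs were weaker without FeAAD5 and FeAAD9: r went from -0.74 to -0.50 for Has2 with Has3, from -0.74 to -0.48 for Has2 with Hyal1 and from -0.69 to -0.37 for Tnfaip6 with Hyal1. No rho of these 3 passed (adjusted permutation p = 0.234, 0.309 and 0.338). Has3 with Hyal1 had r = 0.72, and 0.51 without FeAAD4 and FeAAD5. Cemip had no pair that passed, and its r with Has1, Has2, Cd44 and Tnfaip6 lay between -0.12 and -0.04. Over the 13 libraries, r of Cemip was 0.11 with Has1, 0.56 with Has2, 0.33 with Cd44 and 0.24 with Tnfaip6. None of these passed either (adjusted permutation p = 0.311 for Has2).

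**Figure D4:**
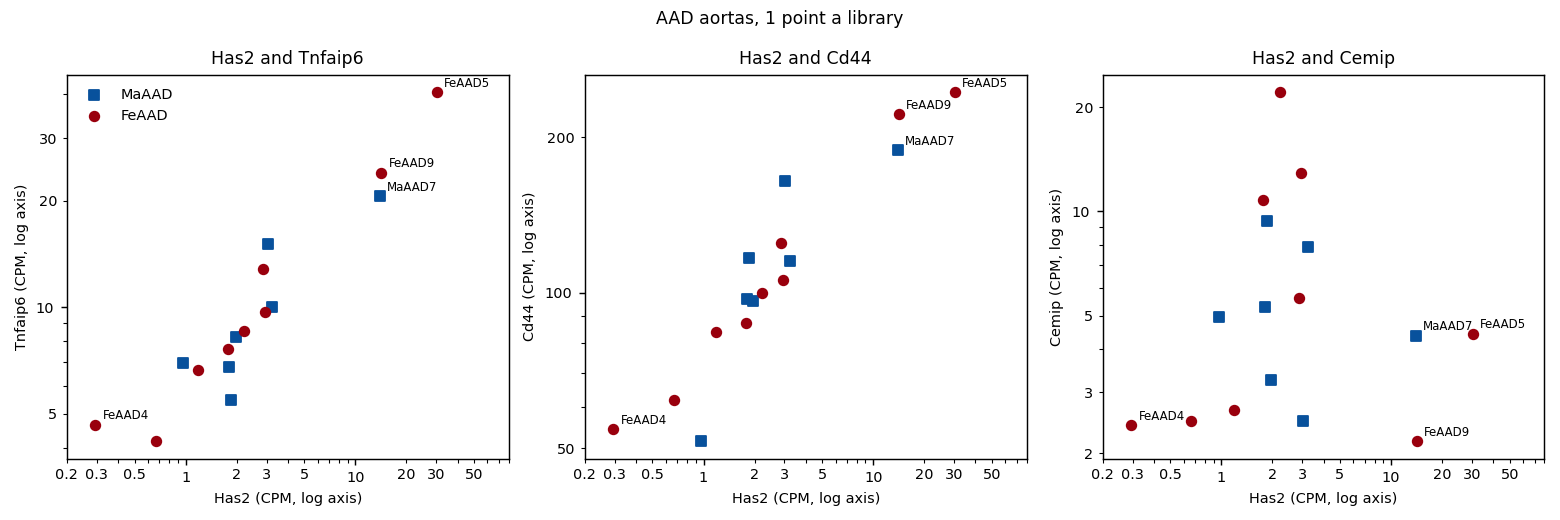
Level of Tnfaip6, Cd44 and Cemip (y axes, CPM, log scale) against that of Has2 (x axes, CPM, log scale) in the AAD libraries, squares for 7 males and circles for 9 females. Tnfaip6 and Cd44 climb with Has2 from FeAAD4 to FeAAD5, while Cemip is scattered and is lowest in FeAAD9.

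**Figure D5:**
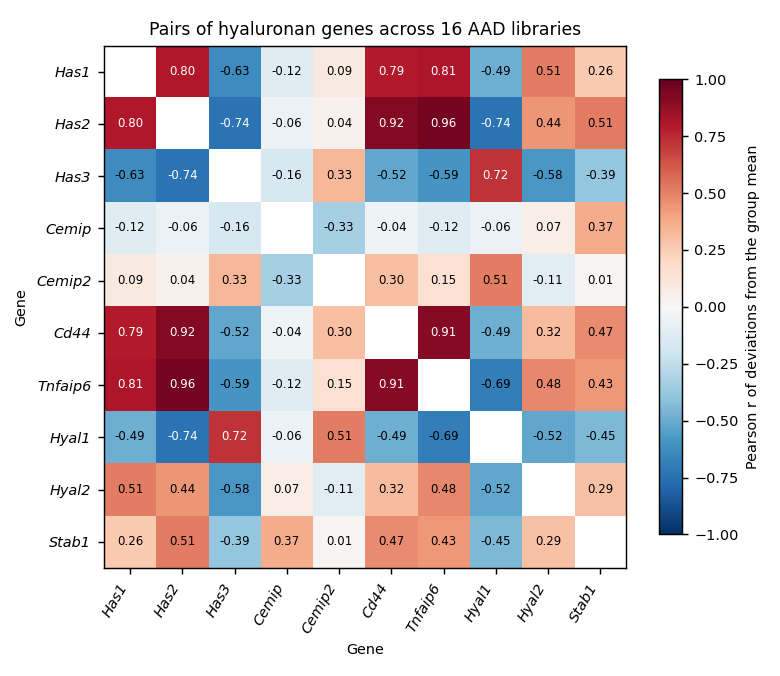
Pearson r between the 10 genes (both axes) across 16 AAD libraries, on deviations of log2(CPM + 1) from the mean of each sex. Has1, Has2, Cd44 and Tnfaip6 form a block of r from 0.79 to 0.96, and the Cemip values lie between -0.33 and 0.37.

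The wider hyaluronan pathway was taken from lists of other genes by role. Among other receptors and binders, 10 of 12 were tested, and 4 were called higher in AAD than in Con in both sexes, where 9.18% of all genes were called higher in males and 9.94% in females. These were Hmmr, whose product binds hyaluronan and the mitotic spindle, the innate receptor gene Tlr2, the long pentraxin gene Ptx3, and Cd38, which encodes an ectoenzyme that consumes NAD. Hmmr went from 0.785 ± 0.442 CPM (SD, n = 10) in MaCon to 8.04 ± 4.29 (n = 7) in MaAAD, with a log2 fold change of 3.34, and by 4.03 in females (adjusted p = 1.21e-07 and 1.11e-09). Ptx3, whose product is held in the hyaluronan matrix together with TSG-6, went from 1.15 to 2.50 CPM in MaCon to 5.57 to 85.0 CPM in MaAAD, without overlap, as in 8.91% of all genes. The female groups overlapped, at 2.21 to 6.16 CPM in FeCon and 3.09 to 101 CPM in FeAAD, with 7 of 9 above the highest control. The log2 fold changes of Ptx3 were 3.74 and 2.79 (adjusted p = 1.9e-05 and 0.000266). Those of Tlr2 were 1.41 and 1.01, and those of Cd38 2.27 and 1.82. Without FeAAD5 and FeAAD9 the female values were 3.46 for Hmmr, 1.77 for Ptx3 (adjusted p = 0.0158) and 1.27 for Cd38, still called, and 0.86 for Tlr2 (adjusted p = 6.23e-06), under the fold minimum. The female Tlr2 call was also lost without FeAAD5 alone (0.82) or FeCon8 alone (0.97). Habp4 had the highest level of the list among genes called in neither sex, at log2 fold changes of -0.45 and -0.28. The 4 cell cycle markers were also called higher in lesions of both sexes, and their summed level went from 4.14 to 34.6 CPM in MaCon to 41.4 to 195 CPM in MaAAD. Their part in the Hmmr values was not tested.

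Among the hyaluronan-binding proteoglycans and link proteins, 6 of 8 were tested and 1 was called, Acan, which encodes aggrecan. It was called in the treated aortas of each group against Con: the log2 fold change was 1.22 in MaNonAD (adjusted p = 0.000988), 1.02 in FeNonAD (adjusted p = 0.000149), 1.4 in MaAAD (adjusted p = 1.17e-07) and 1.55 in FeAAD (adjusted p = 2.83e-09). Of all genes, 0.478% were called in either direction in MaNonAD against MaCon. Called higher against Con were 1.67% in FeNonAD, 9.18% in MaAAD and 9.94% in FeAAD. All 4 MaNonAD libraries, at 123 to 202 CPM, lay above the MaCon range of 39.0 to 90.6 CPM, where 1.25% of all genes were separated in 1 direction or the other. The FeNonAD call was close to the fold minimum and was lost in 8 of 18 fits with 1 library left out, at 0.97 to 1.00. The cartilage markers had median sums in males of 5.13 (MaCon), 11.4 (MaNonAD) and 19.6 CPM (MaAAD), and in females of 7.87 (FeCon), 8.91 (FeNonAD) and 20.8 CPM (FeAAD), with 0 of 3 called in either NonAD group against Con. Their sums did not overlap between MaNonAD, at 8.21 to 40.0 CPM, and MaCon, at 4.08 to 7.55 CPM, and their part in the Acan values was not tested. Between FeAAD and FeNonAD Acan differed by 0.53 (adjusted p = 0.041), under the fold minimum. Vcan, the versican gene and the most abundant of the list among those called in neither sex, had 0.46 in males (adjusted p = 0.0239) and -0.08 in females (adjusted p = 0.688).

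Of the genes that feed or serve the 10, 19 were tested, and 1 was called (lower) in females and 0 in males, where 2.78% of all genes were called lower and 9.94% higher in females, and 2.17% and 9.18% in males. By the adjusted p alone 9 of the 19 passed in males, 8 higher and 1 lower, and 12 in females, 7 higher and 5 lower, beside 35% and 44.4% of all genes. None of the 11 enzymes of UDP-sugar supply was called in any comparison of AAD with Con (medians of the list 0.14 and 0.07), and Gpi1, the most abundant, had log2 fold changes of -0.18 and -0.15. None of the 4 tested genes of the inter-alpha-inhibitor chains, of 6 listed, was called, and Itih4, the most abundant, had -0.08 and -0.09. By the adjusted p alone, 1 of these 4 passed in males and 2 in females, all lower in AAD. Of 8 other breakdown enzymes 4 were tested, and Hyal3 was called lower in females (log2 fold change -1.08, adjusted p = 0.0033), at no more than 23 counts per library and with the overlap named above. In males it had -0.16 (adjusted p = 0.74), and the male minus female difference of 0.92 was not called (adjusted p = 0.303). The female value was -0.99 without FeAAD5 and FeAAD9 (adjusted p = 0.015) and lay between -1.0 and -0.86, not called, without FeCon7, FeCon9 or FeAAD5. Gusb, which encodes lysosomal beta-glucuronidase, had 0.80 in males and 0.87 in females (adjusted p = 5.56e-07 and 2.02e-08), under the fold minimum. Its libraries did not overlap with controls, at 67.2 to 84.9 CPM in MaCon, 94.8 to 178 in MaAAD, 63.0 to 82.7 in FeCon and 96.8 to 207 in FeAAD, beside 8.91% of all genes so separated in males and 4.89% in females. Hexa, a lysosomal enzyme, had 0.45 in both sexes (adjusted p = 0.00212 and 0.000817). Layn, which encodes the receptor layilin, was the only listed gene called in the difference of the AAD response between the sexes, beside 0.52% of all genes. Like Hyal3 and Gusb it was named after its values were seen, and it stood at a male minus female value of 1.08 (SE 0.25, adjusted p = 0.0182), with log2 fold changes of 0.96 in males and -0.12 in females and control means of 23.8 CPM in MaCon and 43.9 CPM in FeCon. The call was lost without FeCon7 or FeCon9 (0.97 and 0.99) and held without FeAAD5 and FeAAD9 (1.19).

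Finally, each of the 10 was set beside the 13710 genes that averaged at least 10 counts, by the Pearson r of deviations from the group mean over all 48 libraries, as a description. Has1 was most like Socs3 (r = 0.78), Ccl7 (0.78) and Tgm1 (0.77), and Has2 like Aunip, F10 and Il1r2 (0.88 each). Cemip was most like Col12a1 (0.82), Ddah1 (0.81) and Col11a1 (0.81), of which Col12a1 and Col11a1 encode fibril-associated and fibrillar collagens. Tnfaip6 was most like Ptx3 (0.81), Alkbh1 (0.81) and Relt (0.80), Cd44 like Tfdp1 (0.90), Ssr1 (0.87) and Morf4l2 (0.85), and Stab1 like Csf1r (0.84), the receptor gene used here as a macrophage marker, Ugt1a7c (0.79) and Cd300ld (0.77). Has3 was most like Trp53inp1 (0.86), Cyth3 (0.83) and 4930523C07Rik (0.80), and Hyal1 like Zbtb4 (0.95), Niban1 (0.93) and Zc3h7b (0.93). Cemip2 was most like Pcnx4 (0.83), Spata13 (0.82) and Ern1 (0.78), and Hyal2 like Med27 (0.74), Sf3b4 (0.74) and Snrpb (0.72). All of these genes were read in the same libraries, at the same depth and tissue make-up.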

How the data were processed

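The authors deposited 1 table of estimated counts per gene, with a column for each of 48 mice. The submitters' processing notes name Bowtie2, RSEM 1.3.1 and GRCm39. The annotation and the strand setting of the counting are not given in the sources used here. Of the deposited expected counts, 4.99% were not whole, as RSEM shares reads between genes, and they were rounded, which changed a library total by at most 19.9 counts. The authors' methods name DESeq2 for the count data, with a fold minimum and an adjusted p. Here the same thresholds were used with edgeR, and DESeq2 was run as an alternative.

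Genes were filtered with filterByExpr by group (14431 of 18782 left), scaled by TMM (factors 0.873 to 1.08) and fitted in edgeR 4.0.16 (R 4.3.3) with its robust quasi-likelihood test, all 48 libraries and 6 group means entering 1 fit. Standard errors were taken from the fold change and its F value. P-values were adjusted by Benjamini-Hochberg over all genes tested, and a gene was called at an adjusted p under 0.05 and a log2 fold change of at least 1 in size. On simulated counts the fit was checked for recovery of known changes. Levels are CPM on TMM-scaled totals. Each library is a different mouse, and p-values measure the spread between mice. Mice that shared a cage were taken as independent, as the cages are not labelled.

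The 10 genes, the pathway and marker lists and the tests were chosen with earlier results of these data known. From each pathway list, the text names the genes called in AAD against Con in both sexes and the most abundant gene called in neither, and any other gene is named as chosen after its values were seen. For each of the 10, the 3 genes most alike are named. Hyal4, Hyal5, Hyal6 and Spam1 were not matched in the table. Gene positions, lengths and overlaps come from GENCODE M21, on GRCm38. The alternatives were DESeq2 1.42.0, DESeq2 size factors in edgeR, no filter, the adjusted p alone, no robust estimation, a fit of the compared groups alone, a replicate block, and each library left out in turn. Replicate numbers did not pair the mice: in no pair of groups was the correlation of same-numbered libraries over 0.1 for every pair.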

Additional observations from a re-analysis of the deposited data

Results flagged for a closer look

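Each gene was checked in each group for a library whose gap to the next one is large against the range of the group (Dixon's criterion at 95%). Of 60 sets, 11 were marked. A rate of 1 in 20, about 3 sets, holds for independent sets of normally distributed values. These were CPM without a log, and genes that vary together share libraries, so 11 cannot be set against 3. In FeNonAD8, 4 genes stood above the rest of FeNonAD: Has1 at 7.39 CPM (next 1.98), Cemip at 5.54 CPM (next 0.792), Cd44 at 99.0 CPM (next 59.2) and Tnfaip6 at 10.8 CPM (next 5.75). Has2 stood apart in MaAAD7 at 14.0 CPM (next 3.22) and in FeAAD5 at 30.2 CPM (next 14.2). Has3 was high in MaCon5 at 14.8 CPM (next 10.1) and in MaAAD2 at 8.00 CPM (next 4.19). Has1 was high in FeCon10 at 11.6 CPM (next 6.20), and Cemip in MaCon4 at 0.573 CPM (next 0.262). Hyal2 was low in FeCon2 at 35.8 CPM (next 44.7).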

How the results depend on the processing

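No fold change of a called gene reversed under any alternative run. Under the alternatives other than leaving out 1 library, 153 such values kept their call and 11 lost it. With 1 library left out, 366 kept their call and 19 lost it. The count of genes called moved by over 1.5 times in few cases. MaAAD against MaNonAD, with 1 called, had 4 by DESeq2, 2 with DESeq2 size factors, and 0 with no filter or with only the compared groups fitted, and 0 to 4 with 1 library left out. FeNonAD against FeCon, with 2, had 1 with only the compared groups fitted, where Cemip did not pass the filter on low counts. FeAAD against FeNonAD, with 5, had 2 without FeAAD5 and FeAAD9, a setting chosen after seeing the data. MaCon against FeCon, with 1, had 3 by the adjusted p alone and 1 to 2 with 1 library left out. Of the gene pairs, 10 passed with all lesion libraries and 3 without MaAAD7, FeAAD5 and FeAAD9, also chosen after seeing the data, of which 2 were among the 10. The causes were not tested, beyond the smaller number of samples. Of the 10 hyaluronan genes, Cemip and Has2 had the lowest counts in controls, with 0 to 9 and 3 to 31 per control library.

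The replicate numbers are shared between groups but do not pair the mice. With the replicate number as a block, MaAAD against MaNonAD had 0 genes called, MaAAD against MaCon 6 and FeAAD against FeCon 7, and no count other than the first moved by over 1.5 times. Stab1 lost its call in MaAAD against MaCon (log2 fold change 0.97). Cd44 lost its call in FeAAD against FeNonAD (1.00 after rounding, under the fold minimum) and in MaAAD against MaNonAD (1.06, edgeR adjusted p = 0.229).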
